A study of Mus musculus with 4 samples.

Results

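Very broad accessible domains are here regions of the genome in which 1 called peak of open chromatin spans at least 2000 bp, whether or not it is open at every base. They were taken from ATAC-seq peak lists of hematopoietic stem cells (HSCs), in which a transposase inserts adapters into accessible DNA and a peak marks a run of positions with more inserted fragments than the background. Overlapping WT and KO peaks on the 19 autosomes were merged into 44263 regions, of which 28645 held a peak of both lists. A domain was a merged region in which the WT list and the KO list each had a peak at least 2000 bp wide, and 181 regions met this rule, 0.632% of the shared ones. Width chose the domains, so the widths given here describe the selection and support nothing further.

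The study compared adult C57BL/6 mice homozygous for a floxed Med23 allele and without cre (WT) with mice that also carried Mx1-cre (KO). Mx1-cre is an interferon-inducible recombinase, which the study switched on with poly(I:C), and it acts in the hematopoietic system and in other interferon-responsive tissues, so it is not limited to HSCs. The study gave poly(I:C) to WT mice as well in other experiments, and whether the WT mice of these samples received it is not given in the sources used here. For each sample, 5000 HSCs were sorted from bone marrow as LSK CD150+CD34-CD48- cells by the labels, whereas the methods of the study leave out CD34. Med23 is a subunit of Mediator, the complex that links transcription factors to RNA polymerase II. The labels name 2 samples per genotype but 1 peak list for both of them, so no difference between WT and KO can be set against a spread between animals, and none was tested. Accessible start sites matched the label in the main: a start site in a region shared by both lists was found for 7 of 10 stem cell markers (among them Kit, Cd34, Mecom, Hlf, Gata2 and Meis1), for 2 of 5 erythroid, 1 of 7 lymphoid, 1 of 7 mature myeloid and 1 of 6 nonhematopoietic markers.

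Most accessible sites in a mammalian cell are short, about the space freed when a nucleosome gives way to transcription factors. Longer open stretches are known from CpG islands, stretches of DNA in which the CG dinucleotide has escaped the loss seen elsewhere in the genome because it stays unmethylated, and which serve as start sites for housekeeping and developmental genes. Where several start sites, enhancers or opposing promoters lie next to each other, their open stretches can merge into a single peak.

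The sequence of a domain can be read from the following windows of 200 bp, which come from the RefSeq sequence of GRCm38.p6, the same build as mm10. They show 5 of the domains described below that span coding start sites and 3 that hold no annotated start site, and each CG dinucleotide is in capitals. The windows are at the WT summit, except those of Cdk6 and Alcam, which were moved by 532 and 884 bp to avoid exons.

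Jun (chr4:95052246-95052445, minus strand): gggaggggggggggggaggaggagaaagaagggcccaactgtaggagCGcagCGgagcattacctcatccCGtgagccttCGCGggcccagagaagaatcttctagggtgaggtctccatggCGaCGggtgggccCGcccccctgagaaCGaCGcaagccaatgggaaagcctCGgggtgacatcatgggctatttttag
Cdk6 (chr5:3343532-3343731, plus strand): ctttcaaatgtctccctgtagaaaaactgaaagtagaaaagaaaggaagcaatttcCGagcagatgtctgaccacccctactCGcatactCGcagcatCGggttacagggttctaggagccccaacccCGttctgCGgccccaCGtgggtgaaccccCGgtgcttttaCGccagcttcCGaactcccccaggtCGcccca
Nr4a2 (chr2:57116764-57116963, minus strand): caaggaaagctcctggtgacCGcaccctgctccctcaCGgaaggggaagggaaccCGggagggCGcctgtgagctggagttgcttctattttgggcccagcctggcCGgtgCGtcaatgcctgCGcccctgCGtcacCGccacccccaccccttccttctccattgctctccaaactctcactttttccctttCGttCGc
Pcdh7 (chr5:57715135-57715334, plus strand): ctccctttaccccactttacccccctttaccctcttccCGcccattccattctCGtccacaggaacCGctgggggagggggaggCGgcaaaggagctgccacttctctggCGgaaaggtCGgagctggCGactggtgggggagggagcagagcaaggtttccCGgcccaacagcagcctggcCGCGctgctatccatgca
Alcam (chr16:52452193-52452392, minus strand): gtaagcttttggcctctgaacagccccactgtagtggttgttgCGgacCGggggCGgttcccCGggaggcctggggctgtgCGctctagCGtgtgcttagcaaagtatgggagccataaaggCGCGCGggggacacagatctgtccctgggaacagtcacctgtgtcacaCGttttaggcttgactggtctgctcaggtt
near Trio (chr15:27783758-27783957, plus strand): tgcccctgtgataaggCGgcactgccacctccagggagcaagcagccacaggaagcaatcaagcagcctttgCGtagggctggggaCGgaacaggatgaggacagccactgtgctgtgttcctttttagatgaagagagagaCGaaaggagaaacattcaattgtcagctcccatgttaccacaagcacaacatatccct
near Lrrn3 (chr12:41485252-41485451, plus strand): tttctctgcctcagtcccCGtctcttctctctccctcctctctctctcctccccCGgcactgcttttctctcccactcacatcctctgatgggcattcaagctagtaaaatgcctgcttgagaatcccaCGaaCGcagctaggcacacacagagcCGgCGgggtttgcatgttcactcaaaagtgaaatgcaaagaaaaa
near Jam3 (chr9:27192091-27192290, plus strand): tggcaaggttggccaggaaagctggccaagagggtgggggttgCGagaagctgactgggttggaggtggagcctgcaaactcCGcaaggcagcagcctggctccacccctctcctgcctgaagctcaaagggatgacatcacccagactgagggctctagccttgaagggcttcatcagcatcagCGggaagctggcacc

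The windows of Jun, Cdk6 and Nr4a2 held 11 CG dinucleotides each, and those of Pcdh7 and Alcam 10 each. The windows of the domains near Lrrn3, Trio and Jam3 held 6, 4 and 3. Distances are counted from the window centre to the coding start site nearest the WT summit. The Jun window lies at −123 bp and the Nr4a2 window at −1825 bp. The Pcdh7 window lies at −2733 bp, the Cdk6 window at −681 bp and the Alcam window at 362 bp, downstream of the start site.

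The 181 domains covered 438.7 kb in the WT list and 434.8 kb in the KO list, 1.66% and 1.67% of all autosomal bases in peaks. The widest peak of a domain measured 2007 to 5500 bp in WT, with a median of 2272 bp, and 2002 to 5581 bp in KO, with a median of 2265 bp. In each list 15 of these peaks were over 3000 bp. In 174 domains each list had a single peak. Domains are ranked below by the smaller of their WT and KO widths.

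**Figure D1:**
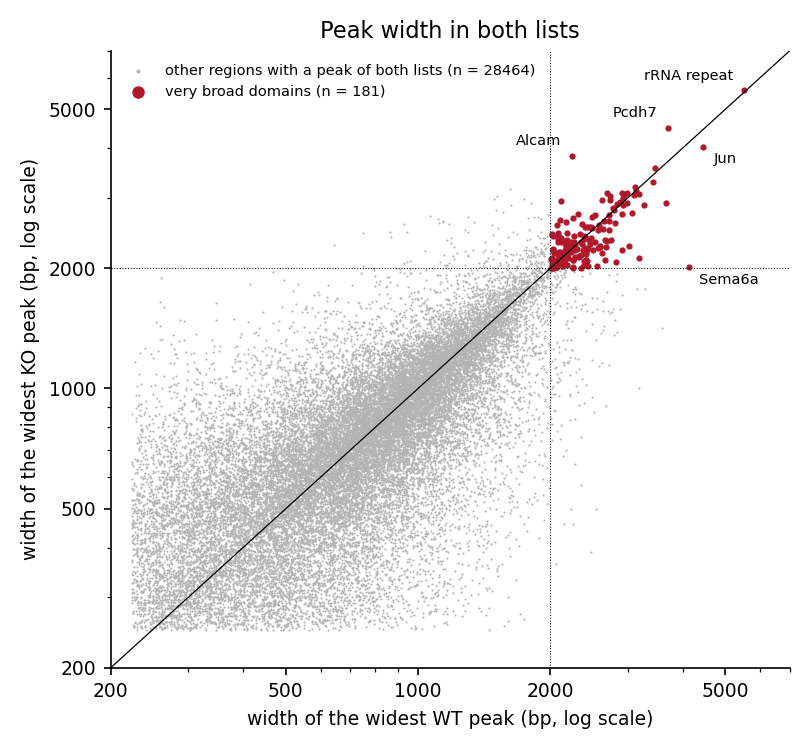
Width of the widest WT peak (x axis) against the widest KO peak (y axis) of each region with a peak of both lists, in bp on log scales. Red points are the 181 very broad domains, grey points the other 28464 regions, the solid line marks equal width and the dotted lines the minimum of 2000 bp; the domains lie near the line except a few such as Alcam and Sema6a.

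The widest domain by this measure lay on chromosome 17 (39843140 to 39848720) over genes annotated as ribosomal RNA (CT010467.1) and long noncoding RNA (Gm26917). Its peak was 5500 bp in WT against 5581 bp in KO. Its summit pileup, the number of fragments or reads stacked at the summit, was 651 in WT and 573 in KO, the highest of all domains, but the local background there was also 215 in WT and 157 in KO. The fold enrichment over that background was therefore only 3.02 in WT and 3.63 in KO. Ribosomal RNA genes are present in many copies per genome, and reads from all copies can collect on those in the assembly, so values were also computed without this region. The other 180 domains had a median KO minus WT width of −2 bp and a promoter share of 83.3%.

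The second domain in this order was that of Jun, which encodes a subunit of the AP-1 transcription factor and is an immediate early gene (chromosome 4, 95049013 to 95053987, ENSMUSG00000052684.4). The Jun peak was 4448 bp in WT against 4025 bp in KO, with pileups of 155 and 126. The WT peak reached 1238 bp upstream and 3209 bp downstream of the start site. The KO peak reached 1765 bp upstream and 2259 bp downstream, so it lay farther upstream and covered less of the gene body. The start site of Junos, a noncoding antisense gene, lay in the same domain.

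Pcdh7, which encodes a protocadherin of cell adhesion, came next by the smaller of both widths (chromosome 5, 57713909 to 57718536). Its widest peak was 3691 bp in WT against 4490 bp in KO, so in KO it was wider than that of Jun. In WT that peak reached from 4058 bp upstream of the coding start site to −368 bp, and a separate WT peak of 432 bp covered the start site itself. In KO a single peak reached 569 bp past the start site.

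Cdk6, the cyclin-dependent kinase that drives HSCs out of quiescence (chromosome 5, 3341148 to 3344760), had a domain of 3464 bp in WT against 3572 bp in KO. The pileup was 50 in each list, but the summits lay 1937 bp apart. Nr4a2, an orphan nuclear receptor and immediate early gene (chromosome 2, 57114319 to 57117731), had 3413 and 3291 bp, pileups of 77 and 76, and summits 1891 bp apart. Both domains reached mainly upstream of the coding start site nearest the WT summit. In WT this reach was 3164 bp at Cdk6 and 2693 bp at Nr4a2. Most bases of each domain were annotated as intron, and each domain held further start sites. The direction therefore depends on the start site taken.

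The other domains among the first 10 in this order belonged to Tsc22d2 (3126 bp in WT against 3123 bp in KO), Ppp2r3d (3116 and 3184 bp), Fzd8, a Wnt receptor (3178 and 3074 bp), and the noncoding genes 5033406O09Rik (3095 and 3044 bp) and Gm16505 (2992 and 3088 bp). The Tsc22d2 summits lay 2008 bp apart. Over these 5 domains, the KO minus WT width ran from −104 to 96 bp.

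**Figure D2:**
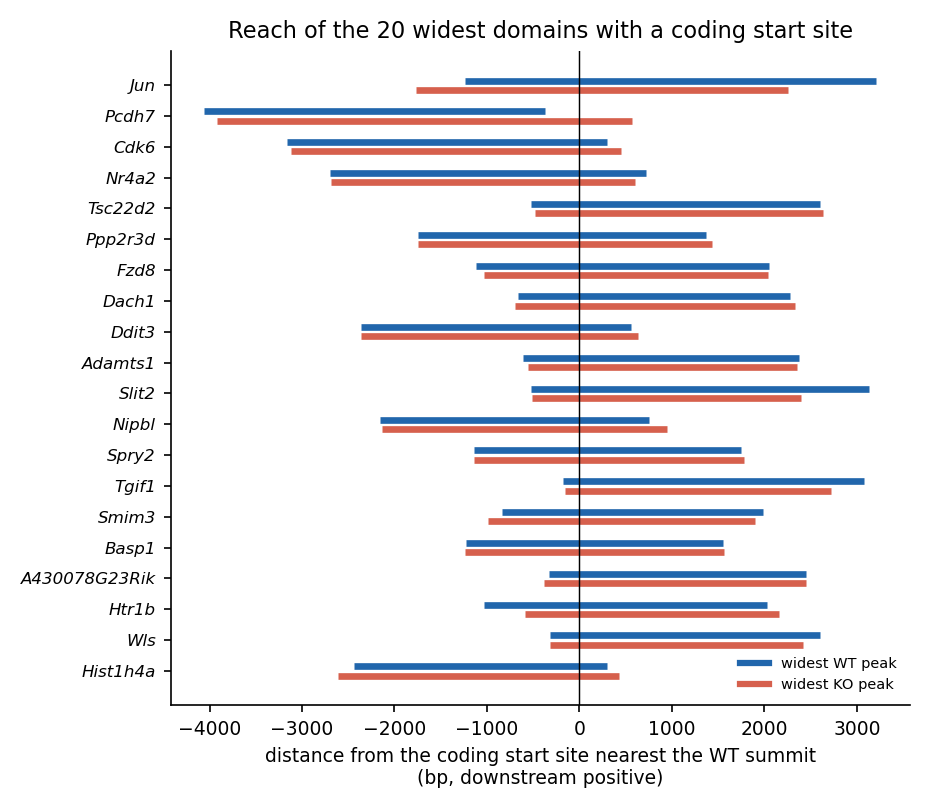
Extent of the widest WT peak (blue) and KO peak (red) around the coding start site nearest the WT summit, in bp with downstream positive, for the 20 domains with a coding start site that rank first by the smaller of both widths. Jun and Slit2 reach less far downstream in KO and Pcdh7 reaches across its start site only in the KO peak, whereas most pairs of bars nearly coincide.

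Most domains lay at promoters. The WT summit lay within 1000 bp of an annotated start site in 151 of 181 domains, 83.4% (95% Wilson interval 77.3 to 88.1, counting error over regions only), against 46.5% of all shared regions. The KO summit met the same limit in 153 domains, and both summits in 147. The share rose with width over the shared regions: it was 24.2% where the smaller of both widths was under 500 bp, 51.5% from 500 to under 1000 bp, 78.3% from 1000 to under 1500 bp and 81.6% from 1500 to under 2000 bp. The interval of the last of these, 78.8 to 84.0, overlapped that of the domains.

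A start site lay somewhere inside 165 domains (91.2%), against 43.6% of all shared regions. A longer region has more room for a start site, so this share depends on width by construction. Coding start sites were present in 157 domains. Of these, 142 held 1 coding gene, 13 held 2 and 2 held 3, and in 15 the coding start sites lay on both strands. A start site of a noncoding gene was also present in 36 of the 157. The domain with histone genes Hist1h1a, Hist1h3a and Hist1h4a (2733 bp in WT against 3038 bp in KO) and that with Hist1h2ai, Hist1h2bl and Hist1h3h (2310 and 2728 bp) were the 2 with 3 coding genes. Histone genes lie in dense clusters with short distances between promoters.

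The 14 domains in which a start site was present but the WT summit lay over 1000 bp away included those of Pcdh7, Nr4a2 and Fli1. At Fli1, an Ets factor of stem cells and megakaryocytes, the summit lay 1388 bp from the start site in WT and 1406 bp in KO. The domain was 2466 bp wide in WT and 2304 bp in KO, with pileups of 44 and 48.

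Around the coding start site nearest the WT summit, the domains reached farther downstream than upstream. The median reach was 983 bp upstream and 1366 bp downstream in WT, and 969 and 1367 bp in KO. In each list 98 of 157 domains reached farther downstream than upstream. Domains with a start site held a median of 3 start sites, so these directions depend on which one was taken. No such reach is given here for other promoter regions. The WT summits themselves lay outside annotated genes in 67 domains, in an intron in 52, in an untranslated exon part of a coding gene in 46, in a noncoding exon in 12 and in coding sequence in 4.

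The sequence of the domains was that of CpG-rich promoters. The median GC content was 58.7%, against 59.7% in the other shared regions at promoters and 47.8% in those away from promoters. The ratio of observed to expected CG dinucleotides, which is near 1 where none were lost, had a median of 0.723 (quartiles 0.590 and 0.805), against 0.707 and 0.235. The domains thus had the base composition of other promoters, over a longer stretch. Bases in windows of 200 bp with at least 50% GC and a ratio of at least 0.6, the usual criteria for a CpG island, had a median of 1862 bp per domain and 760 bp in other promoter regions. They made up a median of 76.7% of a domain and 79.4% of the other promoter regions, so the domains held more of these bases by length and not by share.

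**Figure D3:**
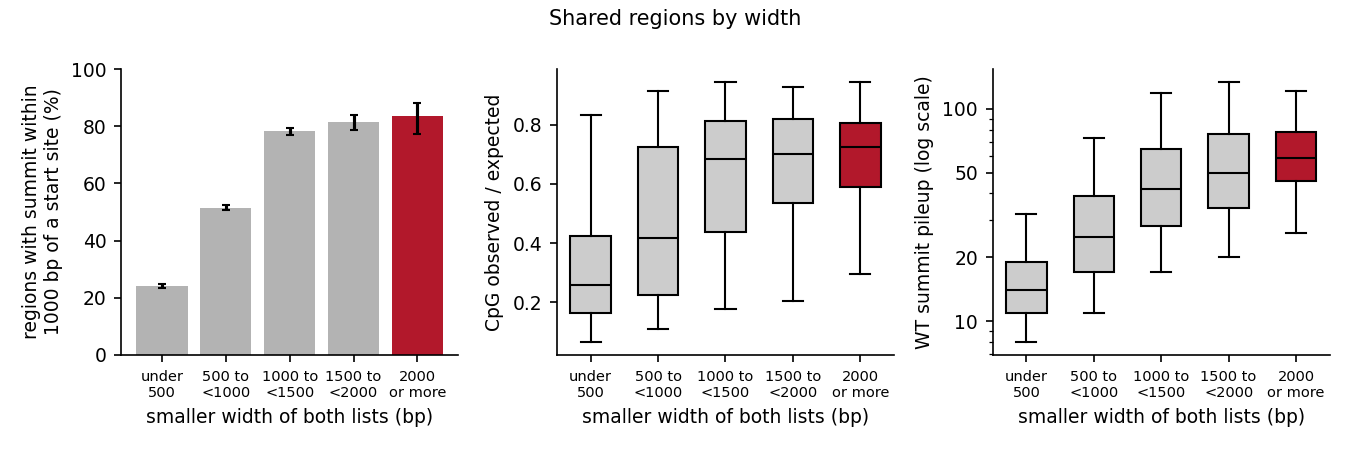
Shared regions grouped by the smaller of their WT and KO widths, with the very broad domains in red. The left panel gives the percentage with a WT summit within 1000 bp of a start site with 95% Wilson intervals, the middle panel the ratio of observed to expected CG dinucleotides and the right panel the WT summit pileup on a log scale, as boxes with median and quartiles and whiskers at percentiles 5 and 95; all rise with width, and the CG ratio changes little above 1000 bp.

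Not all domains were CpG-rich. In 13 of them the CG ratio was under 0.4, and 4 of these held a coding start site. These 4 were Fermt3, which encodes kindlin-3, an activator of integrins in blood cells, Pde4b, a cAMP phosphodiesterase, Wls, a carrier of Wnt proteins, and A430078G23Rik. The Fermt3 domain had the lowest ratio, 0.182, and measured 2530 bp in WT against 2719 bp in KO, with pileups of 35 and 31. Of the 13 domains, 6 were wider in KO and 7 narrower.

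No start site lay inside 16 domains. They measured between 2015 and 3025 bp in WT, and 8 of them lay within 5000 bp of a coding start site. The first by the smaller of both widths were near Lrrn3 (2926 bp in WT against 2884 bp in KO), near Trio (2734 and 2964 bp), near A930004D18Rik (2658 and 2348 bp), near Sstr1 (3025 and 2275 bp) and near Pappa (2586 and 2265 bp). The domain near Trio lay wholly in an intron, and that near Lrrn3 was 72.0% intron and 28.0% untranslated exon of coding genes. The CG ratio was 0.29 in the domain near Trio and 0.38 in that near Lrrn3, and neither held CpG island bases. In the domain near Jam3, 36770 bp from the nearest coding start site, the ratio was 0.19. These are the domains whose windows above hold few capitals. In contrast, 8 of the 16 held over 1500 bp of CpG island bases, among them a pair 23077 bp apart on chromosome 14 near Olfr750 (2172 bp in WT against 2296 bp in KO) and near Rnase4 (2029 and 2226 bp).

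Domains were seldom neighbours. Only 6 pairs lay within 100 kb of each other, among them Stat6 and Nemp1 (22260 bp apart), Kansl1l and Acadl (43907 bp) and 2 domains near Sox4 (71957 bp). Chromosome 10 held 19 domains, 10.5% of all, with 5.90% of the shared regions, and chromosome 6 held 4, 2.21%, with 6.09%. These shares were not tested.

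In windows of 300 bp at the WT summits, GGGCGG, the letters bound by Sp and Klf factors, was present on either strand in 65.2% of domains, 35.9% of all shared regions and 62.7% of other shared promoter regions. AGATAA, the letters of Gata factors, was in 2.76% of domains (95% Wilson interval 1.19 to 6.30), 11.8% of all shared regions and 5.05% of other promoters. TGTGGT, those of Runx factors, was in 15.5%, 24.7% and 13.7%, and TGANTCA, those of AP-1, in 8.84% (5.51 to 13.9), 9.90% and 4.83%. CCGGAAGT, those of Ets factors, was in 3.87% (1.89 to 7.77), 3.50% and 6.57%. Of the other 5 searched, ATTGG (NF-Y), TGACGTCA (Creb and Atf), GCATGCGC (Nrf1), AAGATGGCG (Yy1) and AGGGGGCGC (Ctcf), the shares in domains were 28.2%, 2.21%, 1.66%, 1.10% and 1.66%. The same 5 were in 31.8%, 1.73%, 2.27%, 1.41% and 1.54% of all shared regions and in 34.6%, 2.97%, 4.11%, 2.76% and 2.34% of other promoters. None of these letters holds GGGCGG or is held by it. A match is a description of the letters, and the shares were not tested against each other.

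The genes in the domains were compared with lists of blood and regulatory genes. Over all coding genes, 174 of 11932 with a start site in a shared region (1.46%) had it in a domain. Among immediate early genes, which respond within minutes to a stimulus, 4 of 30 did: Jun, Nr4a2, Btg1 (2073 bp in WT against 2091 bp in KO), a brake on proliferation, and Cxcr4 (2192 and 2253 bp), the chemokine receptor that keeps HSCs in the marrow. Among signalling feedback genes, 3 of 29 did: Dusp6 (2444 and 2360 bp), a phosphatase of ERK, Spry2 (2879 and 2921 bp), an inhibitor of receptor tyrosine kinase signalling, and Tgif1 (3258 and 2871 bp), a repressor in the TGF-beta pathway. The lists were written with earlier results known and were not tested for enrichment.

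Among stem cell transcription factors, 2 of 37 had a domain, Fli1 and Hhex (2473 bp in WT against 2386 bp in KO). Cdk6 was the only one of 16 cyclin, CDK and CDK inhibitor genes, and Fli1 the only one of 13 megakaryocyte genes. Of 39 chromatin regulators, 27 Mediator subunits, 25 stem cell surface and cytokine receptor genes, 19 interferon-stimulated genes and 12 genes that the study names, none had its start site in a domain. The same was true of 6 erythroid, 5 lymphoid, 1 mature myeloid and 6 nonhematopoietic genes with a start site in a shared region.

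Further groups were formed only after the names of the domains had been seen, and serve as description. Genes of axon guidance and cell adhesion were at 14 domains, among them Slit2 and its receptor Robo2, the semaphorins Sema3d, Sema4c and Sema6a, Epha4, Ncam2, Nectin3, Pcdh7 and Alcam. Of these 14 domains, 4 were wider in KO and 10 narrower, with a median KO minus WT width of −23.5 bp, against 89 wider and 91 narrower over all domains. Genes of signalling feedback and stress response were at 17 domains, 7 wider and 10 narrower, with a median of −12 bp. Developmental transcription factors such as Dach1, Foxp2, Pou3f2 and Tshz3 were at 14 domains, 8 wider and 6 narrower, with a median of 5.5 bp. Histone genes were at 3 domains, 2 wider and 1 narrower, with a median of 305 bp.

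The next comparison asked whether the width of the domains differed between WT and KO. Over all domains, the KO minus WT difference had a median of −1 bp (quartiles −145 and 99). The peak was wider in KO in 89 domains (49.2%), narrower in 91 and equal in 1, against 50.9% wider in KO over all shared regions. The difference was at most 100 bp in 86 domains, over 500 bp in 12 and over 1000 bp in 3. A width at least 1.2-fold larger in KO was seen in 8 domains (4.42%) and at least 1.2-fold smaller in 9 (4.97%), against 26.7% and 26.7% of all shared regions. The rule needs at least 2000 bp in both lists and so leaves little room for such changes, and nothing is read from these counts.

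**Figure D4:**
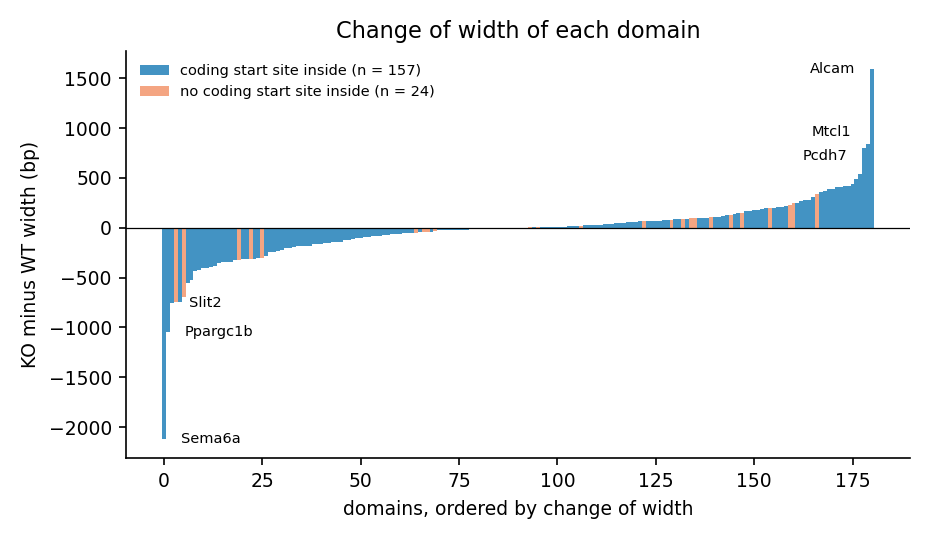
KO minus WT width of the widest peak in bp (y axis) for each of the 181 domains, ordered along the x axis from the largest loss to the largest gain. Blue bars are domains with a coding start site and orange bars those without; 86 domains lie within 100 bp of 0, and Sema6a and Alcam are at the ends.

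The largest gain was at Alcam, which encodes the adhesion molecule CD166 found on HSCs and their niche (chromosome 16, 52450198 to 52454026). Its widest peak was 2238 bp in WT against 3828 bp in KO, a gain of 1590 bp. The WT list had a further peak of 1121 bp in the same region, and the KO peak spanned both. The bases covered by all peaks were 3359 bp in WT against 3828 bp in KO, a difference of 469 bp. The upstream edge lay 1372 bp from the start site in WT and 1371 bp in KO, while the downstream edge moved from 865 to 2456 bp. The summit pileup was 212 in WT against 188 in KO, the second highest of the domains in each list.

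The next gains were at Mtcl1, a microtubule crosslinking factor (2116 bp in WT against 2953 bp in KO), at Pcdh7, where the difference was 799 bp, at Tshz3 (2098 and 2642 bp), at Tbl1xr1, a subunit of NCoR corepressor complexes (2072 and 2561 bp), and at Rnf217 (2170 and 2608 bp). The downstream edge moved by 889 bp at Mtcl1 and by 489 bp at Tbl1xr1, with the upstream edge changed by −52 and 0 bp. At Tshz3 the upstream edge moved farther, by 388 bp, than the downstream one, by 156 bp. At Mtcl1 the wider KO peak had the lower pileup, 25 against 32 in WT.

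The largest loss was at Sema6a, a transmembrane semaphorin, where the widest peak fell from 4131 bp in WT to 2008 bp in KO. The KO list had 2 peaks in the region, of 2008 and 1383 bp, where WT had 1, and the covered bases were 4131 and 3391 bp. Ppargc1b, a coactivator of mitochondrial genes, had 3172 bp in WT against 2124 bp in KO with 1 peak in each list, and its upstream reach was 1377 bp in WT against 445 bp in KO. Slit2, a secreted guidance ligand, had 3664 and 2913 bp, and its downstream reach was 3136 bp in WT against 2399 bp in KO. The domain near Sstr1 had 3025 and 2275 bp, Zmym2 2812 and 2071 bp, and the domain near Olfr1423 2914 and 2219 bp. At Zmym2 the KO list had a second peak of 304 bp, and the covered bases were 2812 and 2375 bp.

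Where a domain with a coding start site changed by over 300 bp, the larger part of the change was downstream of the start site in 26 of 36. The edges moved little at most domains, by a median of 54 bp upstream and 62 bp downstream. The upstream edge lay farther out in KO in 80 of 157 and the downstream edge in 82.

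A list had more than 1 peak in 7 domains: in WT at Alcam, Pcdh7, Foxp2 and L3mbtl3, and in KO at Sema6a, Zmym2, Ncam2 and L3mbtl3. At L3mbtl3 the wide WT peak (2114 bp) and the wide KO peak (2363 bp) were largely different stretches. They shared 513 bp, 24.3% of the WT peak and 21.7% of the KO peak, and each list broke the region at another place. Sema6a was the only other domain in which the wide peaks did not share at least 50% of each.

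Just inside the width minimum were Mex3b (2007 bp in WT against 2002 bp in KO), Idh1 (2345 and 2002 bp), Zmynd11 (2246 and 2005 bp), Nectin3 (2030 and 2007 bp) and Gpc6 (2023 and 2007 bp). Among those just outside were a region with Gemin2 and Sec23a (1997 and 2122 bp), Bcl11a (1993 and 2422 bp) and Entpd6 (2033 and 1993 bp). A wide peak in WT alone was found in 178 regions and in KO alone in 176, about as many as in both. The other list had a peak in all of them, with a median width of 1475.5 bp in KO where WT was wide and 1713.5 bp in WT where KO was wide. It held more than 1 peak in 83 of the 178 regions (46.6%) and in 38 of the 176 (21.6%). Over all shared regions, more than 1 peak was found in 329 for KO and 208 for WT. These counts were not tested.

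The height of the domains was not used by the rule. The median summit pileup was 59 in WT (quartiles 46 and 78) and 55 in KO (40 and 75), at percentiles 92.0 and 89.3 of all autosomal peaks of the list. Without the ribosomal RNA repeat, WT pileups ran from 17 to 212 and KO pileups from 18 to 188. By fold enrichment, however, the median domain was only at percentile 54.6 in WT and 61.7 in KO. The local background around the domain summits was high, with a median of 7.79 in WT and 5.597 in KO, against 2.18 and 1.85 over all shared regions. This background rose with width over the shared regions. Its WT median was 1.47 under 500 bp, 4.06 from 1000 to under 1500 bp and 5.70 from 1500 to under 2000 bp. Fold enrichment is taken over this background, so neither value is independent of the width that chose the domains.

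Pileup was then compared between genotypes as the KO to WT ratio of pileup over the genome-wide background, on the log2 scale. The median was 0.01 (quartiles −0.21 and 0.18) in the domains, 0.17 over all shared regions and 0.14 in 2763 other promoter regions of like summed pileup. The ratio was above 0 in 94 domains (51.9%), against 65.5% of all shared regions and 68.1% of those promoters. By width of the region, the median was 0.20 under 500 bp, 0.18 from 500 to under 1000 bp, 0.11 from 1000 to under 1500 bp, 0.09 from 1500 to under 2000 bp and 0.01 in the domains. It declined with width, and the differences between classes have no replicate check. The scale between the lists is uncertain, and raw pileups shift every region by the same amount, to medians of −0.07 in the domains and 0.08 over all shared regions. The sign of the domains' median thus depends on the scale.

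A ratio of at least 1.5 in either direction was rare in the domains. It was reached upwards by 2 domains (1.10%), against 14.9% of all shared regions and 6.66% of the other promoters of like pileup, and downwards by 2 (1.10%), against 3.66% and 0.507%. The median WT pileup was 22 over all shared regions and 59 in the domains, and the part of this difference in the shares was not tested.

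The highest ratio was at Nedd4l, a ubiquitin ligase, with 49 in WT against 72 in KO and a log2 ratio of 0.64 (95% exact binomial interval 0.097 to 1.195, counting error only). Klf16, a zinc finger factor, had 33 in WT and 48 in KO, 0.63 (−0.04 to 1.31), while its peak was narrower, 2548 bp in WT against 2023 bp in KO. Thrb, a thyroid hormone receptor, had 59 and 80, 0.52 (0.02 to 1.04). The lowest ratio was in the domain near Pappa, with 48 in WT and 27 in KO, −0.74 (−1.48 to −0.03). The noncoding gene 2410080I02Rik had 78 and 46, −0.68 (−1.23 to −0.13), and Slco5a1, a transporter, 39 and 25, −0.56 (−1.34 to 0.21). The interval lay above 0 in 2 domains (1.10%) and below 0 in 3 (1.66%), against 5.46% and 0.391% of all shared regions. The last of the 3 was Cited2, a coactivator needed by HSCs, with 101 and 69, −0.46 (−0.93 to −0.01). The intervals were not corrected for the 181 domains, and over so many regions some 95% intervals miss 0 by chance.

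**Figure D5:**
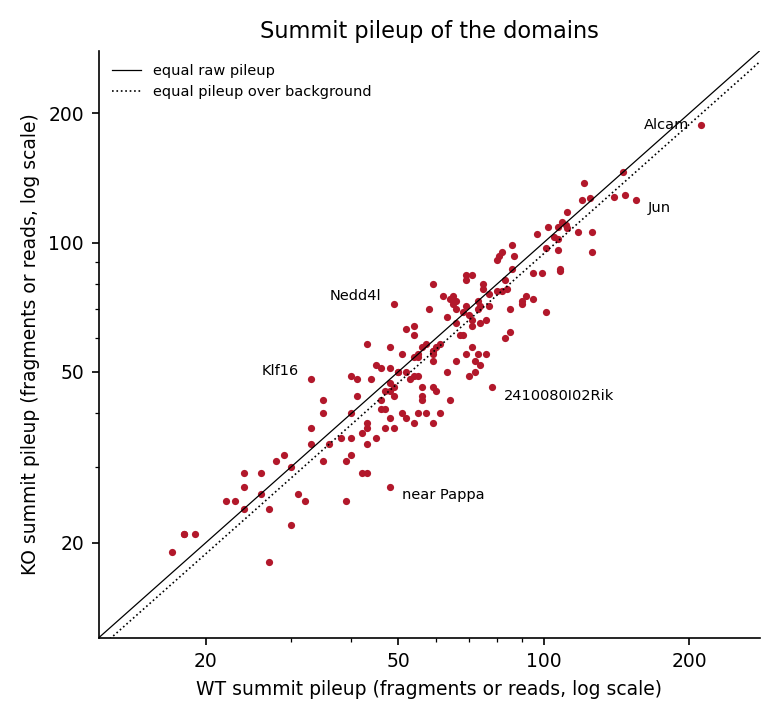
Summit pileup in WT (x axis) and KO (y axis), in fragments or reads on log scales, for 180 domains without the ribosomal RNA repeat. The solid line marks equal raw pileup and the dotted line equal pileup over the genome-wide background; points lie on both sides of the dotted line, with Nedd4l and Klf16 highest above it and the domain near Pappa and 2410080I02Rik lowest.

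The authors' fold enrichment differed from the raw pileup in direction. It was higher in KO in 168 of 181 domains (92.8%), against 77.4% of all shared regions and 94.4% of the other promoters of like pileup. Its median in the domains was 6.77 in WT and 8.599 in KO. The raw pileup was higher in KO in 63 domains, lower in 108 and equal in 10, and the pileup over the genome-wide background was higher in 94. The median log2 ratio of the raw pileup was −0.07 in the domains and 0.08 over all shared regions. The local background was lower in KO in 179 domains (98.9%), against 81.4% of all shared regions and 94.2% of those promoters. Its median log2 ratio was −0.46 in the domains, −0.22 over all shared regions and −0.36 in those promoters, while that of the genome-wide backgrounds was −0.09. At Jun, for instance, the pileup was 155 in WT and 126 in KO, but the fold enrichment was 5.08 and 7.07, where the local background was 29.7 and 16.97. The direction at such domains depended on the measure.

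The position of the summit was compared last. The summits of the lists lay within 100 bp of each other in 111 domains (61.3%), against 74.2% of all shared regions. This share fell with width, from 76.5% under 500 bp to 64.7% from 1500 to under 2000 bp. A wider peak has more room for its summit to differ. The summits were over 1000 bp apart in 15 domains and over 1500 bp in 6, namely Cdk6, Nr4a2, Tsc22d2, A430078G23Rik, Gtf2a1 and N4bp2l1. The bases in both wide peaks over those in either had a median of 0.928, against 0.737 over all shared regions. This ratio rose with width, from 0.591 under 500 bp to 0.904 from 1500 to under 2000 bp. It is computed from the peak edges that the rule used, and nothing is read from it.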

How the data were processed

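Accessibility was measured by ATAC-seq in sorted HSCs, with 2 samples per genotype in the labels and 1 deposited peak list for each genotype. By their methods, the authors used trim_galore to remove adapters and low-quality ends, mapped the reads with Bowtie2 on mm10, filtered duplicate and mitochondrial reads through Picard, and ran MACS2 without its fragment model. Versions are not given in the sources used here, nor is it stated whether replicates were pooled. The deposited lists give the authors' fold enrichment of the summit (a ratio), the −log10 p and −log10 q values of the authors' caller, and a display score by the same caller, which was not used here though the authors deposited it. Chromosome, start, end and summit offset were taken as the authors deposited them.

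Peaks on the 19 autosomes were merged where they shared at least 1 bp. Width is end minus start of the widest peak of a list. Whole-number pileups and local backgrounds were solved from the fold enrichment and −log10 p (within 0.001, for 99.99% of peaks), and the median over the 1000 lowest backgrounds served as genome-wide background (1.19 in WT and 1.13 in KO). Read depth is unknown. The recovery and the merging were tested on simulated data. Start sites are those of GENCODE M21, sequence is RefSeq GRCm38.p6. Python 3.11.15, numpy 2.4.6, pandas 2.3.3 and scipy 1.17.1 were used. Intervals (Wilson for shares, exact binomial for pileup ratios, 95%) cover counting error only, and regions are not replicates. With 1 list per genotype, no test between genotypes was made. The domains, the gene lists and the rules for naming were chosen with earlier results of these data known. Named were the 10 widest domains by the smaller of both widths, the 6 largest gains and 6 largest losses of width, domains of listed genes, the 5 on each side of the width minimum, the 5 widest without a start site, the 3 widest with more than 1 peak in a list, the 3 highest WT pileups and the 3 largest gains and losses of pileup ratio. Of the regions just outside that minimum, 2 are not reported here. Other names were added after their values were seen.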

Additional observations from a re-analysis of the deposited data

Results flagged for a closer look

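Chromosome X was outside the comparisons. It held 4 regions with a peak of at least 2000 bp in both lists, a signal in data that the report did not use. They were at Usp9x (2037 bp in WT and 2100 bp in KO), Tbl1x (2602 and 2938 bp), Brwd3 (2091 and 2114 bp) and Hmgn5 (2535 and 2533 bp). Pileups were 74 in WT and 53 in KO at Usp9x, 30 and 31 at Tbl1x, 68 and 79 at Brwd3 and 109 and 94 at Hmgn5. Tbl1x is a relative of Tbl1xr1, which was among the autosomal domains with the largest gains.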

How the results depend on the processing

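No paired analysis was possible because a single peak list without replicate number stands for each genotype, and no replicate could be left out. The number of domains depended on the width minimum: 1027 regions met 1500 bp, 34 met 2500 bp and 9 met 3000 bp, against 181. The promoter share was 75.1% within 500 bp, 94.5% within 2500 bp and 91.2% with a start site anywhere inside, against 83.4%. At 1500 bp the median log2 width ratio was 0.0148, with 82 regions at least 1.2-fold wider in KO and 70 narrower, and at 2500 bp there was 1 of each, against 8 and 9. Counting covered bases in place of the widest peak gave 15 narrower, and the differences were 469 bp at Alcam, 367 bp at Pcdh7 and −740 bp at Sema6a. At Zmym2 the difference was −437 bp, against −741 bp, and it is among the 39 values of single domains that stayed within the limit below. Raw pileups gave a median log2 ratio of −0.074, against 0.01. Median GC content was 57.5% at 2500 bp and 64.0% in 300-bp windows at the summit, where the CG ratio was 0.787. Other minimums, distances and windows change these values by construction, and for the rest the cause was not tested. The other 49 values of main results and 39 of single domains moved by less than 1.5 times (counts), stayed in the 95% interval of the reported value (shares and medians) or moved by less than 1 SD of the width differences, 321 bp (single domains), under the alternatives run, which also included a −log10 q of at least 10, chromosome X, merging over gaps of up to 500 bp, wide peaks overlapping by 50% of each, and differences of up to 50 bp left out. Leaving out the ribosomal RNA repeat was chosen after seeing the data. The lists give no read counts, so depth limits what can be said of single pileups, and with 1 list per genotype variation between animals is not known.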
